A study of Drosophila melanogaster with 18 samples.

Results

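Muscle carcass of third-instar Drosophila melanogaster larvae that expressed the kinase NUAK was compared with muscle carcass of larvae that expressed lacZ, a bacterial enzyme gene used as a control. The comparison rests on 6 of the 18 RNA-seq libraries of the series, chosen by their labels: the 3 libraries named mef2>NUAK548 muscle and the 3 named mef2>lacZ muscle. Every group carried the mef2 driver, which is active in muscle, so the lacZ larvae shared the driver and also expressed a foreign gene. A further NUAK group, mef2>NUAK550, and whole larvae of all 3 genotypes, each with 3 libraries, serve below only to show where NUAK548 muscle differed from them. The labels give 1 overexpression genotype to NUAK548 and NUAK550 and do not say what the numbers mean. They give no age beyond the larval stage and no sex, and nothing in them ties a library to its own cross or culture, so p-values measure the spread between these libraries. The design holds no control for the line background of the NUAK548 larvae.

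NUAK is a serine/threonine kinase of the AMPK-related family, which the kinase Lkb1 activates. In Drosophila larval muscle it is known for its part in the turnover of contractile proteins, together with the co-chaperone Starvin and chaperone-assisted autophagy. Muscle relies on a few systems to keep its proteins in order: chaperones hold and refold damaged proteins, the proteasome degrades proteins tagged with ubiquitin, and autophagy delivers larger cargo to lysosomes. Secreted and membrane proteins are folded in the endoplasmic reticulum, where an unfolded protein response adjusts the folding machinery to its load.

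Levels are given as CPM, reads of a gene relative to the library's counted reads, after TMM scaling, listed for libraries 1, 2 and 3 of a group. Differences are log2 fold changes of NUAK548 minus lacZ unless another pair is named, with their standard error (SE) and edgeR's quasi-likelihood adjusted p. A gene is said to have risen or fallen where that adjusted p was below 0.05. The 6 libraries held 14577914 to 17400341 counted reads. Marker genes were set against the carcass label. The summed level of 32 muscle markers was 50309 to 120523 CPM in the 6 libraries and 8131 to 19108 CPM in whole lacZ and NUAK548 larvae. For 74 digestive and midgut genes it was 1151 to 1665 CPM against 13768 to 40936 CPM, and for 58 cuticle genes 76085 to 104458 CPM against 14953 to 28367 CPM, so the carcass held body wall as well as muscle. The libraries of the NUAK548 group were not alike: library 1 had the lowest summed muscle markers, 50309 CPM beside 120523 and 84248 CPM in libraries 2 and 3, where lacZ had 63606, 90815 and 63198 CPM. Since the carcass is a mixture, fewer cells of a type and less RNA per cell cannot be told apart.

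The transgene target was the first check. Nuak (FBgn0262617, 3R 10264306 to 10308467) stood at 369, 338 and 379 CPM in lacZ, 2611, 2815 and 1854 in NUAK548 and 4250.5, 3369.8 and 4239.8 in NUAK550. All 3 NUAK548 libraries lay far above the lacZ libraries, a 6.7-fold rise (log2 2.74, SE 0.19, adjusted p = 0.000709), and the call held in each of 9 repeats of the fit that left out 1 muscle library. The difference between NUAK548 and NUAK550 missed the threshold (log2 −0.70, SE 0.18, adjusted p = 0.0952). The male-specific RNA lncRNA:roX1, a part of the dosage compensation complex, stood at 400.3, 428 and 456 CPM in lacZ, 279, 209.7 and 113 in NUAK548 and 49.4, 55.2 and 50.5 in NUAK550. Each NUAK548 library was below each lacZ library and above each NUAK550 library. The difference from lacZ missed the threshold (log2 −1.09, SE 0.27, adjusted p = 0.0576) and that from NUAK550 passed it (log2 1.96, SE 0.28, adjusted p = 0.0199). A second male-specific RNA, lncRNA:roX2, had 416 reads in lacZ, 164 in NUAK548 and 2 in NUAK550, and was not called against lacZ. A further check gene, w, was not called against lacZ either. The part that a difference in sex ratio may have in the genes below was not tested. Summed testis and germ-line markers were low in both groups, at 11.3 to 15.1 CPM in lacZ and 11.4 to 15.6 CPM in NUAK548.

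Across the 9821 genes of the muscle model, 546 (5.56%) passed for NUAK548 against lacZ, 255 higher (2.6%) and 291 lower (2.96%) in NUAK548. Among them 106 rose and 141 fell by at least 2-fold, and 34 rose and 46 fell by at least 4-fold. In all 546 the 3 NUAK548 values lay outside the 3 lacZ values, a separation that 14.3% of all tested genes showed upward and 13.3% downward. The count depended on the libraries: leaving out 1 library at a time gave 80 to 247 higher and 94 to 282 lower genes, the fewest without lacZ library 2.

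**Figure D1:**
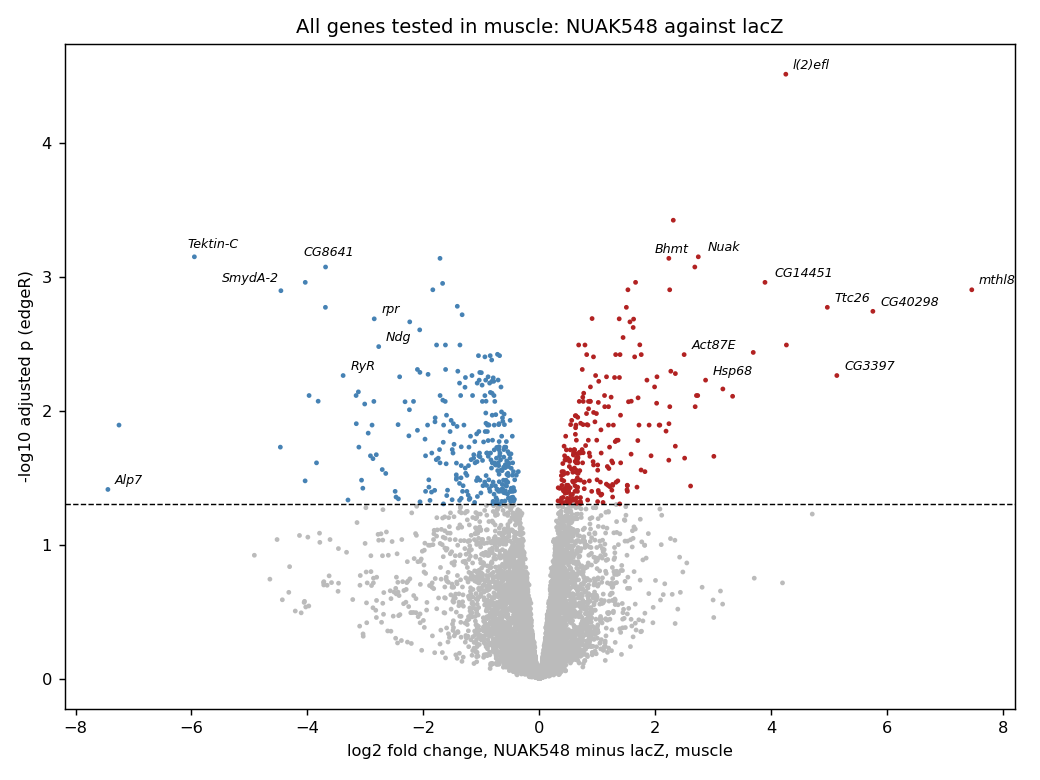
Log2 fold change (NUAK548 minus lacZ, x axis) against the negative log10 of the adjusted p (y axis) for the 9821 genes tested in muscle; red marks the 255 genes that rose, blue the 291 that fell and grey the rest, and the dashed line stands at an adjusted p of 0.05. The chaperone gene l(2)efl lies apart at the top right, and Tektin-C, SmydA-2 and CG8641 at the upper left.

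The rise with the lowest adjusted p was in l(2)efl (FBgn0011296, 2R 23684651 to 23685543), which encodes a small heat shock protein of the alpha-crystallin family. It stood at 393, 501 and 458 CPM in lacZ, 7171, 9410.1 and 9231 in NUAK548 and 8136, 8945 and 8922 in NUAK550. The lowest NUAK548 library was far above the highest lacZ library (log2 4.25, SE 0.17, adjusted p = 3.07e-05). Hsp68, an inducible member of the Hsp70 family, was measured at 93.8, 32.1 and 41.9 CPM in lacZ and 458, 339.8 and 429 in NUAK548. The groups were well apart, with lacZ library 1 the highest of its group (log2 2.87, SE 0.38, adjusted p = 0.00591). CG14207, a small heat shock protein related to vertebrate HSPB8, was measured at 1864, 1433 and 1449 CPM in lacZ and 3861, 3559 and 4268 in NUAK548, again with every NUAK548 library above every lacZ library (log2 1.30, SE 0.17, adjusted p = 0.00565). These 3 calls held in all 9 repeats with a library left out.

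Other abundant rises were in enzymes, structural genes and growth regulators. Act87E (FBgn0000046, 3R 13425983 to 13428375), a muscle actin, was measured at 771, 1033 and 1066 CPM in lacZ and 3676, 7739.7 and 4831 in NUAK548, a 5.66-fold rise that was largest in NUAK548 library 2 (log2 2.5, SE 0.29, adjusted p = 0.00381). Reads of near-identical actin genes may be shared between them by the counting. Bhmt, named for betaine-homocysteine methyltransferase, was measured at 73.7, 60.5 and 80.8 CPM in lacZ and 327, 514 and 543 in NUAK548 (log2 2.68, SE 0.21, adjusted p = 0.000845). Its 3 NUAK548 values did not overlap the lacZ values, and NUAK550 lay between both at 275, 295 and 284 CPM. Thor, the 4E-BP repressor of cap-dependent translation, was measured at 125, 169 and 249 CPM in lacZ and 644, 954 and 618 in NUAK548 (log2 2.03, SE 0.30, adjusted p = 0.00879). NUAK548 library 2 was the highest, and the call was lost without lacZ library 2, at an adjusted p of 0.05. The gene hoe2 was measured at 3.1, 6.96 and 8.94 CPM in lacZ and 29.1, 60.9 and 36.7 in NUAK548, with all NUAK548 libraries above lacZ (log2 2.73, SE 0.39, adjusted p = 0.0077).

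A further set of large rises began from a level near 0 in lacZ. The receptor gene mthl8, of the Methuselah-like G protein-coupled family, was measured at 0.248, 0 and 0 CPM in lacZ and 15.2, 13.6 and 17.9 in NUAK548 (log2 7.46, SE 0.66, adjusted p = 0.00125). Libraries 2 and 3 of lacZ had no reads, so the size of its fold change depends on the prior count of the fit. Ttc26, a component of intraflagellar transport, was measured at 0.124, 0.174 and 0.182 CPM in lacZ and 4.94, 5.07 and 5.78 in NUAK548 (log2 4.97, SE 0.47, adjusted p = 0.00169). CG40298 was measured at 0.186, 0.174 and 0 CPM in lacZ and 4.47, 9.37 and 6.92 in NUAK548 (log2 5.76, SE 0.56, adjusted p = 0.00181). Each of these low genes was separated between the groups in every library. CG14022 (0.434, 0.87 and 1.46 CPM in lacZ and 10.2, 27.3 and 16.2 in NUAK548, log2 4.27, SE 0.47, adjusted p = 0.00323), CG30334 (0.31, 0.58 and 0.243 CPM in lacZ and 3.21, 7.4 and 4.43 in NUAK548, log2 3.69, SE 0.42, adjusted p = 0.00367) and CG3397 (0.248, 0.116 and 0.0608 CPM in lacZ and 4.16, 4.24 and 7.25 in NUAK548, log2 5.14, SE 0.52, adjusted p = 0.00546) showed the same form. The rises of mthl8, Ttc26, CG40298, CG14022, CG30334 and CG3397 each held with any 1 library left out.

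**Figure D2:**
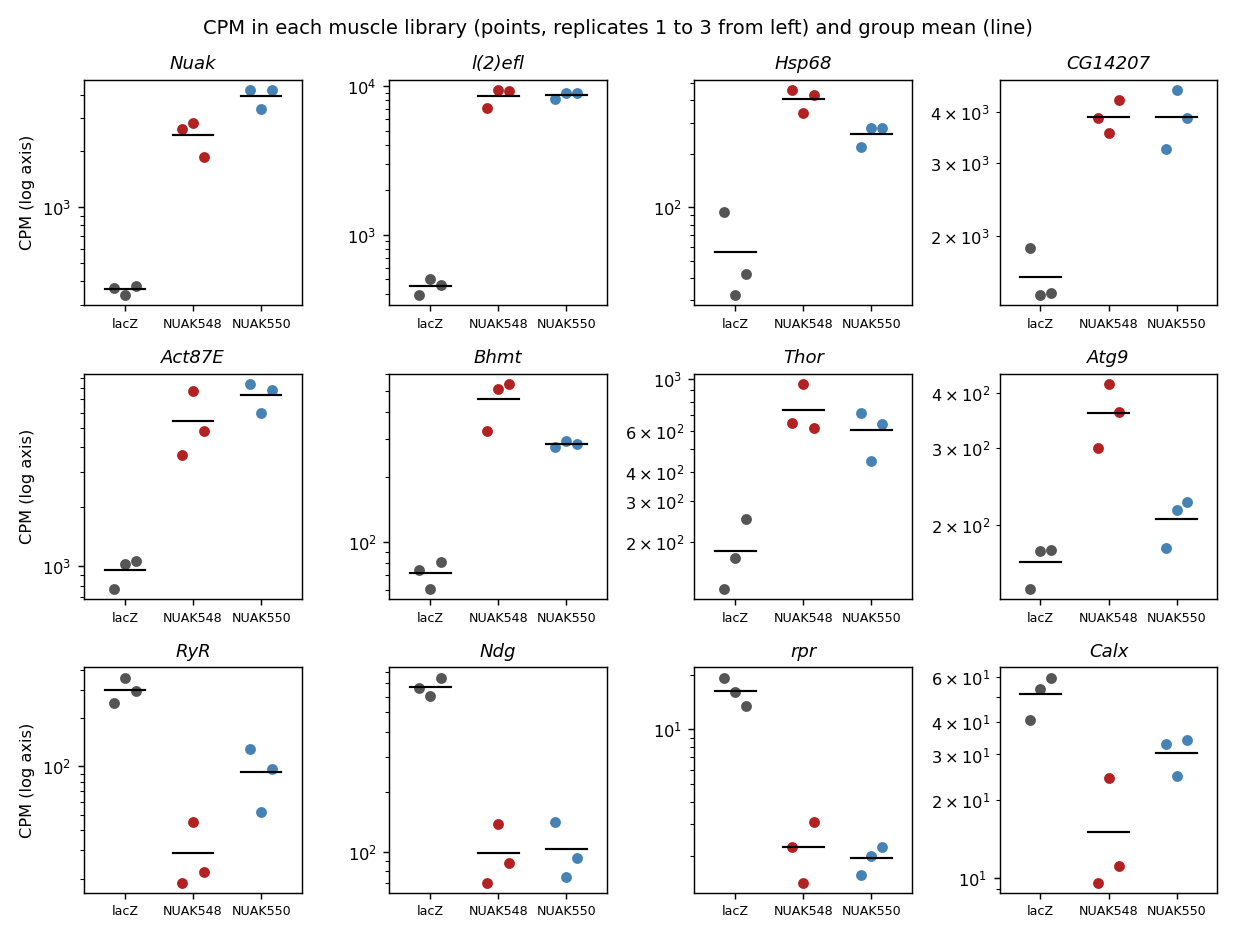
CPM on a log axis for 12 genes in the lacZ, NUAK548 and NUAK550 muscle libraries; points are libraries 1 to 3 from left to right and lines are group means. In the 8 genes from Nuak to Atg9 the 3 NUAK548 points lie above the 3 lacZ points, and in RyR, Ndg, rpr and Calx they lie below.

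The largest falls included a calcium channel, a basement membrane protein and a cell death gene. RyR (FBgn0011286, 2R 8860364 to 8888097), the channel that releases calcium from the sarcoplasmic reticulum, was measured at 247, 357 and 294 CPM in lacZ, 18.9, 45.3 and 21.9 in NUAK548 and 129, 51.8 and 96.9 in NUAK550. Every NUAK548 library was below every library of both other groups, a 10.4-fold fall from lacZ (log2 −3.38, SE 0.43, adjusted p = 0.00546), while the difference from NUAK550 missed the threshold (log2 −1.69, SE 0.41, adjusted p = 0.0877). Ndg, which encodes the basement membrane glycoprotein nidogen, was measured at 666, 607 and 748 CPM in lacZ, 70.1, 139 and 88.1 in NUAK548 and 141, 75 and 92.9 in NUAK550. Both NUAK groups lay far below lacZ (log2 −2.77, SE 0.31, adjusted p = 0.00332 for NUAK548). The cell death activator rpr (reaper) was measured at 19.3, 16 and 13.4 CPM in lacZ and 2.26, 1.43 and 3.09 in NUAK548 and fell 7.19-fold (log2 −2.85, SE 0.28, adjusted p = 0.00206). The calls of RyR, Ndg and rpr held with any 1 library left out.

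Further falls were in genes of low level. Tektin-C, a protein of ciliary and flagellar microtubules, was measured at 13, 12.2 and 16.7 CPM in lacZ and 0.105, 0.358 and 0.202 in NUAK548 (log2 −5.95, SE 0.41, adjusted p = 0.000709), and Oseg5, a component of intraflagellar transport, at 15.8, 13.7 and 12.5 CPM in lacZ and 1.1, 1.37 and 0.739 in NUAK548 (log2 −3.69, SE 0.35, adjusted p = 0.00169). SmydA-2, of the SET and MYND domain methyltransferase family, was measured at 6.82, 10.5 and 6.39 CPM in lacZ and 0.421, 0.537 and 0.47 in NUAK548 (log2 −4.04, SE 0.34, adjusted p = 0.0011). In all 3 genes the groups were separate in every library. CG8641 (8.44, 11.4 and 11.2 CPM in lacZ and 0.999, 0.895 and 0.47 in NUAK548, log2 −3.69, SE 0.29, adjusted p = 0.000845) and the glycine metabolism enzyme Gcat (13.5, 17.1 and 6.2 CPM in lacZ and 1.32, 2.03 and 1.75 in NUAK548, log2 −2.85, SE 0.42, adjusted p = 0.00852) fell as well. The calls of these 5 genes held with any 1 library left out. The falls of the adhesion gene Dscam4 (19, 20.7 and 19.2 CPM in lacZ and 2.21, 1.07 and 0.739 in NUAK548, log2 −3.84, SE 0.76, adjusted p = 0.0245), CG43740 (log2 −2.87, adjusted p = 0.0228), CG15117 (log2 −2.81, adjusted p = 0.0213) and CG44006 (log2 −2.65, adjusted p = 0.0294) held in 3, 5, 4 and 3 of the 9 repeats, with adjusted p up to 0.089, 0.075, 0.078 and 0.095.

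To see what was particular to NUAK548, the 2 NUAK groups were compared directly in the same model. That contrast called 142 genes (1.45%), 50 higher (0.509%) and 92 lower (0.937%) in NUAK548. Of the genes that differed from lacZ, 8 were higher than in NUAK550 as well (0.0815% of all genes tested) and 20 were lower than in both (0.204%), and 3 higher genes were below NUAK550. Both contrasts share the NUAK548 libraries, so they are not independent. The comparison of NUAK550 with lacZ shares the lacZ libraries and called 633 higher (6.45%) and 600 lower genes (6.11%).

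Among the 8 higher genes, Ttc26 had 0.0659, 0.308 and 0.0663 CPM in NUAK550, at or near the level in lacZ (log2 5.01, SE 0.47, adjusted p = 0.00533 against NUAK550). CG3397 had no reads in NUAK550, and with 3 counts for that whole group as a floor NUAK548 was at least 84.4-fold higher (adjusted p = 0.00737). Mrp5, an ABC transporter of the multidrug-resistance-associated family, was measured at 3.41, 1.91 and 2.8 CPM in lacZ, 9.94, 19.1 and 12.4 in NUAK548 and 2.9, 2.21 and 2.65 in NUAK550, with NUAK548 above both groups in every library (log2 2.35, SE 0.30, adjusted p = 0.00528 against lacZ and log2 2.42, SE 0.30, adjusted p = 0.0103 against NUAK550). The call against NUAK550 was lost without NUAK550 library 3, at an adjusted p of 0.065. CG14451, of which 28.5% overlaps another gene, was measured at 0.372, 0.464 and 0.365 CPM in lacZ, 4.94, 6.5 and 6.78 in NUAK548 and 1.32, 2.51 and 1.59 in NUAK550 (log2 1.74, SE 0.28, adjusted p = 0.0295 against NUAK550). The antisense RNA asRNA:CR45822 overlaps another gene over 79.4% of its length, and without a known strand setting its reads cannot be told from those of its partner. It was measured at 0.744, 1.45 and 0.912 CPM in lacZ, 4.31, 6.74 and 3.69 in NUAK548 and 0.659, 0.872 and 0.265 in NUAK550 (log2 3.00, SE 0.46, adjusted p = 0.0253 against NUAK550).

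The other 3 higher genes included parts of the secretory route. Hsc70-3 (BiP), the main Hsp70 chaperone of the endoplasmic reticulum, was measured at 863, 708 and 798 CPM in lacZ, 1244, 1472 and 1029 in NUAK548 and 717, 726 and 669 in NUAK550. All NUAK548 libraries were above those of both groups (log2 0.66, SE 0.15, adjusted p = 0.04 against lacZ and log2 0.83, SE 0.15, adjusted p = 0.0385 against NUAK550). These calls were fragile: that against lacZ held in 1 and that against NUAK550 in 0 of 9 repeats with a library left out, with adjusted p up to 0.14 and 0.2. Golgin245, a tethering protein of the Golgi, was measured at 89.5, 83.5 and 95.8 CPM in lacZ, 125, 116 and 129 in NUAK548 and 83.8, 82.1 and 85.7 in NUAK550 (log2 0.46, SE 0.0888, adjusted p = 0.0233 against lacZ and log2 0.56, SE 0.0889, adjusted p = 0.0301 against NUAK550). The call of Golgin245 against lacZ held in 4 repeats, with adjusted p up to 0.095. CG1273 was measured at 6.45, 5.16 and 4.99 CPM in lacZ, 12, 9.31 and 12.4 in NUAK548 and 3.36, 5.8 and 3.78 in NUAK550 (log2 1.37, SE 0.23, adjusted p = 0.0338 against NUAK550). The calls against NUAK550 held in 2 repeats for Golgin245, 2 for CG1273, 1 for CG14451 and 5 for asRNA:CR45822, with adjusted p up to 0.13, 0.15, 0.13 and 0.092.

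**Figure D3:**
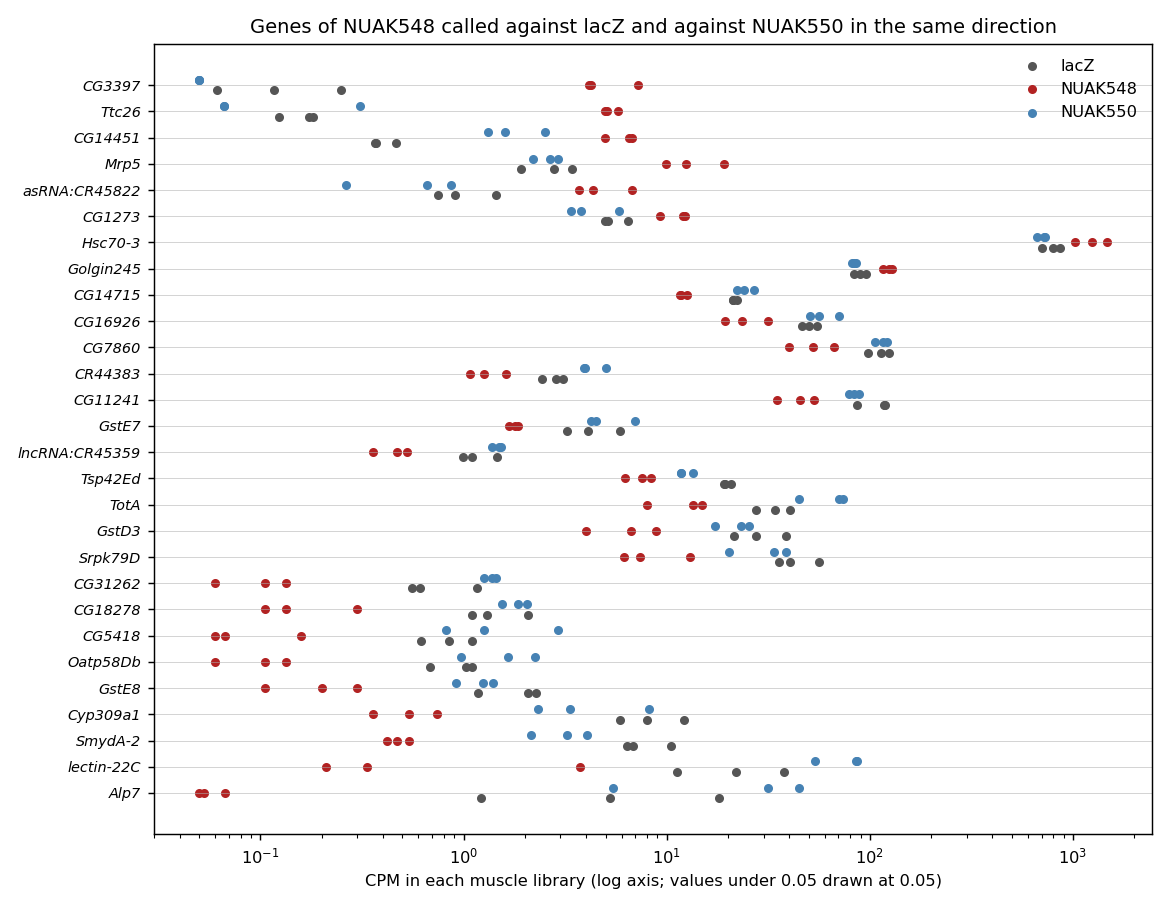
CPM on a log axis in each muscle library for genes called in NUAK548 against lacZ and against NUAK550 in the same direction. All such genes are drawn, 8 higher and 20 lower in NUAK548. The NUAK548 points lie to the right of both other groups in the upper genes, from CG3397 to Golgin245, and to the left of both in the others.

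The 20 genes lower than in both groups included glutathione S-transferases and a stress peptide. Alp7, an alkaline phosphatase, had 2 reads in NUAK548, and was measured at 5.27, 1.22 and 18 CPM in lacZ, 0.0526, 0 and 0.0672 in NUAK548 and 44.9, 5.44 and 31.5 in NUAK550. The ratio of lacZ to NUAK548 was 204.5 (95% counting interval 56.6 to 1689) and that of NUAK550 to NUAK548 was 642.7 (178 to 5307), covering counting error only. The wide spread within lacZ and NUAK550 went with weak calls, at adjusted p = 0.0387 and 0.0385. The C-type lectin gene lectin-22C was measured at 21.9, 37.8 and 11.2 CPM in lacZ, 0.21, 3.76 and 0.336 in NUAK548 and 85.5, 53.6 and 86.8 in NUAK550 (log2 −4.04, SE 0.86, adjusted p = 0.0334 against lacZ and log2 −5.71, SE 0.90, adjusted p = 0.029 against NUAK550). Each NUAK548 value was below every value of the other groups, and NUAK548 library 2 was the highest of its group. The calls of both genes against lacZ held in 3 of 9 repeats with a library left out, with adjusted p up to 0.12 and 0.1. That of lectin-22C against NUAK550 held in 3, with adjusted p up to 0.098.

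SmydA-2 was below NUAK550 as well, whose libraries had 3.23, 2.15 and 4.04 CPM (log2 −2.70, SE 0.33, adjusted p = 0.0103); that call was lost without NUAK548 library 1 at adjusted p = 0.062 and NUAK548 library 3 at adjusted p = 0.057. The organic anion transporter gene Oatp58Db was measured at 0.682, 1.1 and 1.03 CPM in lacZ, 0.105, 0.0597 and 0.134 in NUAK548 and 2.24, 0.974 and 1.66 in NUAK550 (log2 −3.93, SE 0.50, adjusted p = 0.0111 against NUAK550). NUAK548 was lowest in every library, with few reads behind each value. CG31262 (log2 −2.88 against lacZ and −3.69 against NUAK550) and CG18278 (log2 −3.01 and −3.29) had the same order. Against NUAK550 the calls of Oatp58Db, CG31262 and CG18278 held in 6, 8 and 5 of 9 repeats, with adjusted p up to 0.068, 0.067 and 0.08. The cytochrome P450 gene Cyp309a1 was measured at 12.2, 5.92 and 8.03 CPM in lacZ, 0.736, 0.358 and 0.537 in NUAK548 and 8.18, 3.33 and 2.32 in NUAK550 (log2 −3.05, SE 0.56, adjusted p = 0.0392 against NUAK550). Srpk79D, an SR protein kinase known from motor neurons with 21.8% of its length in an overlap, was measured at 40.6, 55.9 and 35.8 CPM in lacZ, 6.15, 13.1 and 7.39 in NUAK548 and 33.7, 20.4 and 38.7 in NUAK550 (log2 −1.80, SE 0.34, adjusted p = 0.0455 against NUAK550). The calls of Cyp309a1 and Srpk79D against NUAK550 held in 1 and 2 of 9 repeats, with adjusted p up to 0.13 and 0.17.

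Glutathione S-transferases, which conjugate glutathione to foreign and oxidised molecules, recurred among these genes. GstD3 was measured at 27.7, 38.5 and 21.5 CPM in lacZ, 4.0, 8.89 and 6.65 in NUAK548 and 25.5, 17.3 and 23.3 in NUAK550 (log2 −2.17, SE 0.32, adjusted p = 0.00852 against lacZ and log2 −1.76, SE 0.32, adjusted p = 0.0385 against NUAK550). GstE8 was measured at 1.18, 2.26 and 2.07 CPM in lacZ, 0.105, 0.298 and 0.202 in NUAK548 and 1.25, 0.923 and 1.39 in NUAK550 (log2 −3.16, SE 0.45, adjusted p = 0.0077 against lacZ), and GstE7 at 3.23, 4.12 and 5.9 CPM in lacZ, 1.79, 1.85 and 1.68 in NUAK548 and 6.99, 4.26 and 4.51 in NUAK550 (log2 −1.31, SE 0.29, adjusted p = 0.0363 against lacZ). The call of GstD3 against NUAK550 held in 2 of 9 repeats, with adjusted p up to 0.15. In GstD3, GstE7 and GstE8 every NUAK548 value was the lowest of the 3 groups. The more abundant GstD1 (996, 1505 and 1057 CPM in lacZ and 416, 689 and 548 in NUAK548, log2 −1.11, SE 0.22, adjusted p = 0.0245) and GstT1 (96, 118 and 85.2 CPM in lacZ and 51.6, 53.9 and 52.3 in NUAK548, log2 −0.92, SE 0.12, adjusted p = 0.00591) fell against lacZ without passing against NUAK550. In the list of antioxidant and glutathione genes 6 of 30 tested members fell and 1, the peroxide-degrading catalase Cat, rose (374, 354 and 369.9 CPM in lacZ and 693, 558 and 482 in NUAK548, log2 0.66, SE 0.14, adjusted p = 0.0317); the falls were GstD1, GstD3, GstE7, GstE8, GstT1 and the mitochondrial peroxiredoxin gene Prx3, with a list median of −0.41 beside 0.01 over all genes. Over all genes tested, 2.96% fell and 2.6% rose against lacZ. Against NUAK550, 6 members were lower, GstD2, GstD3, GstD5, GstE7, GstE8 and GstE9, and 1, GstE1, was higher. That contrast had 0.937% of all genes lower and 0.509% higher. Members of the GstD and GstE clusters are similar in sequence, so reads may be split between them. Against lacZ the falls of GstD3, GstE8 and GstT1 held in all 9 repeats, those of GstD1 and GstE7 in 4 and 3, and the rise of Cat in 2, with adjusted p up to 0.082, 0.11 and 0.11.

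Of 34 tested immune genes 1 rose and 1 fell against lacZ, near the shares of all genes, 2.6% and 2.96%. TotA, a Turandot stress peptide secreted into the haemolymph, was measured at 27.7, 34 and 40.5 CPM in lacZ, 13.5, 14.9 and 7.99 in NUAK548 and 73.9, 70.3 and 44.6 in NUAK550, lowest in NUAK548 in every library (log2 −1.49, SE 0.28, adjusted p = 0.0207 against lacZ and log2 −2.37, SE 0.28, adjusted p = 0.00931 against NUAK550). Its calls against lacZ and NUAK550 held in 5 and 8 of 9 repeats, with adjusted p up to 0.07 and 0.05. Rel (Relish), the NF-kappaB factor of the Imd pathway, was measured at 176, 120.4 and 182 CPM in lacZ and 328, 352 and 270.1 in NUAK548 (log2 0.99, SE 0.17, adjusted p = 0.0166). The antimicrobial peptide genes AttA (2.42, 2.55 and 10.7 CPM in lacZ, 53.6, 7.22 and 9.4 in NUAK548 and 0.462, 0.103 and 0.53 in NUAK550, log2 6.04, SE 1.17, adjusted p = 0.0486 against NUAK550) and Dro (6.7, 1.51 and 7.72 CPM in lacZ, 9.63, 6.26 and 2.96 in NUAK548 and 0.396, 0.308 and 0.663 in NUAK550, log2 3.79, SE 0.72, adjusted p = 0.0477 against NUAK550) were higher than in NUAK550 without a call against lacZ.

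Proteasome genes were higher in NUAK548, by a small amount each, and 35 of 37 were separate between the groups where 14.3% of all genes were. All 14 tested subunits of the 20S core, the barrel that cleaves proteins, had a log2 fold change above 0, with a median of 0.49, and in all 14 every NUAK548 value was above every lacZ value. Of the 23 tested genes of the 19S regulatory cap and its assembly, all 23 were above 0, with a median of 0.49, and 21 were separate between the groups. The summed level of the 37 genes was 14348, 12750 and 13618 CPM in lacZ and 18285, 18239 and 20241 in NUAK548. It was 11473, 16144 and 13190 in NUAK550, whose library 2 was the highest of that group. These totals of all 37 genes were separate between NUAK548 and both other groups. The sum of the 20S core alone overlapped with NUAK550, at 6267 CPM in NUAK550 library 2 and 6001 CPM in NUAK548 library 1. That of the cap did not overlap.

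Beside 2.6% of all genes that rose and 2.96% that fell, 7 of the 37 proteasome genes rose singly and 0 fell. In the core they were Prosalpha2 (351, 326 and 361 CPM in lacZ and 501, 539 and 562 in NUAK548, log2 0.63, SE 0.13, adjusted p = 0.0333), Prosbeta7 (407, 377 and 410.3 CPM in lacZ and 588, 616 and 700.2 in NUAK548, log2 0.67, SE 0.14, adjusted p = 0.0288) and Prosalpha1 (2.67, 2.26 and 2.13 CPM in lacZ and 5.26, 4.24 and 6.92 in NUAK548, log2 1.21, SE 0.22, adjusted p = 0.0187). The low Prosalpha1 counts carry a reservation, since a near-identical copy lies beside this gene. In the cap they were the ATPases Rpt5 (log2 0.65, adjusted p = 0.0491) and Rpt6 (log2 0.64, adjusted p = 0.0288), the ubiquitin receptor Rpn10 (log2 0.67, adjusted p = 0.0484) and the deubiquitinase Uch-L5 (log2 0.67, adjusted p = 0.0294). These calls were sensitive: with 1 library left out 0 to 12 proteasome genes passed, and 0 passed without NUAK548 library 3 and without lacZ library 2, while the median stayed between 0.42 and 0.54. By DESeq2 24 passed, with other size factors 5, and with the replicate block 0. Prosalpha1 held in 6 repeats, lost without lacZ library 2 at adjusted p = 0.078, lacZ library 3 at adjusted p = 0.07 and NUAK548 library 3 at adjusted p = 0.054, and each of the other 6 in 2, with adjusted p up to 0.16. Against NUAK550 the median was 0.50, and 1 gene passed, the cap scaffold subunit Rpn2 (770.2, 625 and 703 CPM in lacZ, 959, 909 and 888 in NUAK548 and 515, 615 and 541 in NUAK550, log2 0.72, SE 0.12, adjusted p = 0.0338). In that contrast 0.509% of all genes were higher. The median of NUAK550 minus lacZ was 0.01 with 3 genes higher, where 6.45% of all genes were.

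Rpt6R, a paralogue of Rpt6 known from testis, was measured at 4.22, 6.38 and 1.95 CPM in lacZ, 23, 23.1 and 30.9 in NUAK548 and 7.85, 31.9 and 11.7 in NUAK550 and rose (log2 2.61, SE 0.57, adjusted p = 0.0365). NUAK550 library 2 was as high as NUAK548. The call held in 2 of 9 repeats, with adjusted p up to 0.12. It was the only call among 4 tested testis paralogues of proteasome and energy genes. In the ubiquitin and p97 list, 1 of 18 rose, the p97 cofactor Npl4 (79.9, 89.5 and 83.1 CPM in lacZ and 105, 135 and 117 in NUAK548, log2 0.50, SE 0.11, adjusted p = 0.04), and 0 fell. The shares over all genes were 2.6% that rose and 2.96% that fell. The call of Npl4 held in 1 of 9 repeats, with adjusted p up to 0.13, and it was lost with only the 2 groups compared, with the replicate block and with no filter on low counts.

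**Figure D4:**
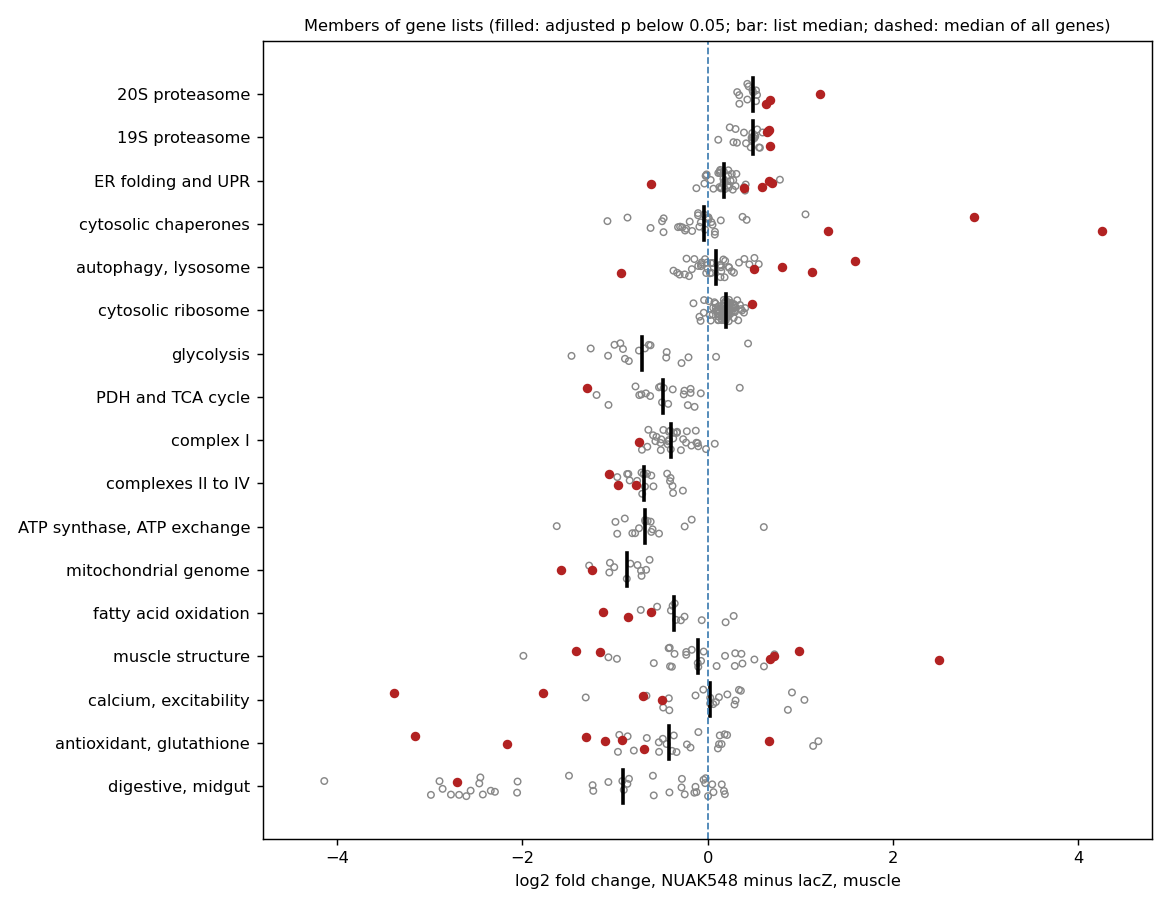
Log2 fold change (NUAK548 minus lacZ, x axis) of every tested member of 17 gene lists; filled points passed an adjusted p of 0.05, open points did not, black bars are list medians and the dashed line is the median of all genes. The proteasome points lie to the right of 0, and those of glycolysis, the respiratory chain and the mitochondrial genome lie mainly to the left with few filled points.

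Cytosolic chaperones changed in 3 members. For the lists in this paragraph, the shares over all genes were 2.6% that rose and 2.96% that fell. Of 35 tested chaperone genes, those that rose were l(2)efl, Hsp68 and CG14207, and 0 fell, and the list median was −0.04. Their summed level was 10238 to 11695 CPM in lacZ and 20403 to 23037 CPM in NUAK548, and l(2)efl and CG14207 made up most of the difference. Hsc70-4, the constitutive Hsp70 partner of Starvin, was measured at 3239, 3433 and 3431 CPM in lacZ, 4018, 5137 and 3967 in NUAK548 and 6749.5, 5988 and 6161 in NUAK550 and missed the threshold against lacZ (log2 0.38, adjusted p = 0.15). Starvin itself, stv, was measured at 159.7, 198 and 209 CPM in lacZ and 173, 249.7 and 159.8 in NUAK548 and overlapped between the groups (log2 0.04, adjusted p = 0.93). Among 16 tested genes of NUAK, Lkb1 and chaperone-assisted autophagy, 1 rose, which was Nuak. The filamin gene cher (2622, 1760.1 and 2228 CPM in lacZ and 3419.9, 3086 and 3511 in NUAK548, log2 0.60, adjusted p = 0.171) and Lkb1 (20.4, 20.6 and 21 CPM in lacZ and 19.99, 25.1 and 22.8 in NUAK548, log2 0.13, adjusted p = 0.491) did not pass.

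In the list of endoplasmic reticulum folding and the unfolded protein response, 4 of 41 tested genes rose and 1 fell. Over all genes tested, 2.6% rose and 2.96% fell. Of the 41, 35 were above 0, with a median of 0.18. Besides Hsc70-3, the stress sensor Atf6 (56.8, 50.2 and 62.4 CPM in lacZ and 93, 85.7 and 95 in NUAK548, log2 0.69, SE 0.10, adjusted p = 0.00852), the co-chaperone P58IPK (56.8, 54.1 and 57.7 CPM in lacZ and 74.4, 105 and 74.5 in NUAK548, log2 0.59, SE 0.14, adjusted p = 0.0464) and the translocon partner Sec63 (56.6, 56.5 and 54.7 CPM in lacZ and 78.6, 71.5 and 70.1 in NUAK548, log2 0.39, SE 0.0803, adjusted p = 0.0285) rose. The NUAK548 values of Atf6, P58IPK and Sec63 were all above their lacZ values. BI-1, a membrane protein that restrains cell death, fell (133, 141 and 133 CPM in lacZ and 73.8, 94 and 98.1 in NUAK548, log2 −0.61, SE 0.12, adjusted p = 0.0264). Another gene overlaps 60.7% of Sec63, so its reads are uncertain. Atf6 held in all 9 repeats with a library left out, P58IPK in 0, Sec63 in 2 and BI-1 in 4, with adjusted p up to 0.15, 0.1 and 0.097. Against NUAK550, Hsc70-3 and Edem2, a factor of endoplasmic reticulum-associated degradation (92, 86.2 and 93.4 CPM in lacZ, 88.6, 93.3 and 85.6 in NUAK548 and 66.8, 62.8 and 66.9 in NUAK550, log2 0.44, SE 0.0808, adjusted p = 0.0385), were higher.

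Autophagy and lysosome genes were changed in a few members. Atg9, the transmembrane protein of early autophagosomes, was measured at 143, 175 and 176 CPM in lacZ, 300.1, 419 and 361 in NUAK548 and 178, 216 and 225 in NUAK550, highest in all 3 NUAK548 libraries (log2 1.13, SE 0.16, adjusted p = 0.0077 against lacZ and log2 0.80, SE 0.16, adjusted p = 0.0529 against NUAK550). Atg16, which directs lipid conjugation of Atg8, was measured at 26.1, 28.4 and 29.2 CPM in lacZ and 58.7, 116 and 76.8 in NUAK548 (log2 1.59, SE 0.23, adjusted p = 0.00849). The lysosomal protease gene cathD (499.6, 485 and 583 CPM in lacZ and 808, 887 and 1036 in NUAK548, log2 0.80, SE 0.14, adjusted p = 0.0182) and Atg101 (11.7, 13.6 and 11.7 CPM in lacZ and 16.9, 17.1 and 18.3 in NUAK548, log2 0.50, SE 0.11, adjusted p = 0.0382) rose, and the fusion SNARE gene Snap29 fell (71, 62.5 and 64.9 CPM in lacZ and 34.1, 35.7 and 33.9 in NUAK548, log2 −0.94, SE 0.13, adjusted p = 0.00771). In Atg9, Atg16, cathD, Atg101 and Snap29 the 2 groups were separate in every library. These were the 5 calls among 42 tested members, where 5.56% of all genes passed in either direction. The list median was 0.10, and 0.02 without lacZ library 2. Atg9, Atg16 and Snap29 held in all 9 repeats, cathD was lost without lacZ library 1 at adjusted p = 0.071, lacZ library 2 at adjusted p = 0.078 and NUAK548 library 3 at adjusted p = 0.061, and Atg101 held in 1, with adjusted p up to 0.12.

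Genes of energy metabolism were lower in NUAK548 on balance, with few single calls and with a wide spread among the NUAK548 libraries. None of 18 tested glycolysis genes passed against lacZ, although 16 were below 0 and the median was −0.71. The summed level of 19 glycolysis genes was 10264, 13668 and 8735 CPM in lacZ and 3190, 9910 and 5812 CPM in NUAK548. Library 1 of NUAK548 was the lowest of the 6 by far and library 2 lay within the lacZ range. The glycolytic enzyme genes Pglym78 (531, 725 and 452 CPM in lacZ and 118, 392 and 203 in NUAK548), Gapdh2 (1346, 1783 and 1149 CPM in lacZ and 323, 1149 and 560.2 in NUAK548) and Eno (1258, 1768 and 972 CPM in lacZ and 314, 1197 and 612 in NUAK548) followed that order, at log2 −1.26, −1.07 and −0.91 with adjusted p of 0.118, 0.19 and 0.27. Without NUAK548 library 1 the glycolysis median was −0.38, and without library 2 it was −1.10 with 2 genes lower. Hex-A, a hexokinase, was higher than in NUAK550 (259, 198 and 237 CPM in lacZ, 244, 196 and 162 in NUAK548 and 88.9, 89.96 and 98.2 in NUAK550, log2 1.12, SE 0.17, adjusted p = 0.0239), where lacZ and NUAK548 overlapped.

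The respiratory chain was also lower on balance, with library 1 of NUAK548 the lowest. The sum over all its nuclear genes was nonetheless separate between the groups. The summed level of 74 nuclear genes of oxidative phosphorylation was 15586, 21653 and 15060 CPM in lacZ. In NUAK548 it was 7051, 13428 and 10535 CPM. The sum of the complex I genes alone overlapped, at 2057 to 2908 CPM in lacZ and 1434 to 2197 CPM in NUAK548. Those of complexes II, III and IV and of ATP synthase did not overlap. Of 71 tested nuclear genes of oxidative phosphorylation 69 were below 0, with a median of −0.55, and in 30 every NUAK548 value was below every lacZ value, where 13.3% of all genes showed that separation. Of the 71, 4 fell, beside 2.96% of all genes, and 0 rose. The 4 were SdhD, a membrane anchor of complex II (96.2, 106 and 86.1 CPM in lacZ and 44.6, 62.8 and 61.4 in NUAK548, log2 −0.77, SE 0.15, adjusted p = 0.0245), ox, a subunit of complex III (48.3, 62.8 and 42.2 CPM in lacZ and 18.6, 31.9 and 27.8 in NUAK548, log2 −0.97, SE 0.21, adjusted p = 0.0363), COX7C of complex IV (137, 197 and 129 CPM in lacZ and 53.3, 86.5 and 82.1 in NUAK548, log2 −1.06, SE 0.22, adjusted p = 0.0317) and ND-MWFE of complex I (33.7, 42.2 and 28.2 CPM in lacZ and 16.2, 22.7 and 23.4 in NUAK548, log2 −0.74, SE 0.18, adjusted p = 0.0484), of which 35% overlaps another gene. Their values in the first NUAK548 library were the lowest of each gene. SdhD was lost without lacZ library 1 at adjusted p = 0.076, lacZ library 2 at adjusted p = 0.095 and NUAK548 library 3 at adjusted p = 0.061, and COX7C, ox and ND-MWFE held in 3, 1 and 1 of 9 repeats, with adjusted p up to 0.098, 0.12 and 0.15. The list median was −0.39 without NUAK548 library 1, with 1 gene lower, and −0.70 without library 2, with 6 lower. By DESeq2 16 of the list passed, and with the replicate block 0 did. Without NUAK548 library 3 and without lacZ library 2, 0 passed as well.

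Transcripts of the mitochondrial genome were lower too. All 13 tested were below 0, with a median of −0.87, and 11 were separate between the groups, where 13.3% of all genes were in that direction. Reads of the whole mitochondrial genome made up 8.32, 10.2 and 9.17% of counted reads in lacZ and 3.55, 5.06 and 7.49% in NUAK548. Here library 2 lay below the lacZ range, as in the summed nuclear genes and unlike in glycolysis, and library 3 was the nearest to lacZ. Beside 2.96% of all genes, 2 of the 13 fell, mt:ND2 (541, 485 and 293 CPM in lacZ and 99.3, 108 and 234 in NUAK548, log2 −1.58, SE 0.35, adjusted p = 0.0392) and mt:ND4L (138, 111 and 80.8 CPM in lacZ and 30.8, 42.1 and 66.2 in NUAK548, log2 −1.25, SE 0.28, adjusted p = 0.04), both subunits of complex I. Both held in 2 of 9 repeats, with adjusted p up to 0.12, and without NUAK548 library 3 7 of the 13 passed.

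Other pathways of fuel use gave further single calls, where 2.96% of all genes fell. Pdk, the kinase that shuts off pyruvate dehydrogenase, was measured at 167, 279.7 and 173 CPM in lacZ, 82.6, 97.2 and 72.2 in NUAK548 and 74.3, 61 and 62.6 in NUAK550 and fell (log2 −1.30, SE 0.22, adjusted p = 0.0128). It was the 1 call among 22 genes of pyruvate dehydrogenase and the tricarboxylic acid cycle, whose median was −0.48, and −0.29 without NUAK548 library 1. The Pdk call was lost without NUAK548 library 3 at adjusted p = 0.052. Of 14 fatty acid oxidation genes 3 fell: wal, the alpha subunit of the electron transfer flavoprotein (201, 241 and 199 CPM in lacZ and 109, 124 and 121 in NUAK548, log2 −0.86, SE 0.12, adjusted p = 0.00622), Mtpbeta, of the trifunctional protein (156, 175 and 152 CPM in lacZ and 114, 110.5 and 91.2 in NUAK548, log2 −0.61, SE 0.11, adjusted p = 0.0195), and the enoyl-CoA hydratase gene Echs1 (235, 289 and 180.2 CPM in lacZ and 111, 118 and 92.9 in NUAK548, log2 −1.13, SE 0.22, adjusted p = 0.0226). In all 3 the NUAK548 libraries were below the lacZ libraries without overlap. The call of wal held in all 9 repeats, Mtpbeta was lost without lacZ library 1 at adjusted p = 0.054 and lacZ library 2 at adjusted p = 0.077, and Echs1 held in 5, with adjusted p up to 0.082. In lipid synthesis and storage, the desaturase Desat1 (log2 −0.62, adjusted p = 0.033) and the phosphatidate phosphatase Lpin (log2 −0.64, adjusted p = 0.0355) were the 2 falls among 18. The aspartate aminotransferase gene Got1 (288, 409 and 289 CPM in lacZ and 92.2, 181 and 134 in NUAK548, log2 −1.28, SE 0.26, adjusted p = 0.0268) and PhKgamma, a subunit of phosphorylase kinase (68.2, 91.9 and 67 CPM in lacZ and 45.1, 52.4 and 49.1 in NUAK548, log2 −0.63, SE 0.14, adjusted p = 0.0381), fell as well. Desat1, Lpin, Got1 and PhKgamma held in 3, 3, 3 and 2 repeats, with adjusted p up to 0.11, 0.12, 0.095 and 0.12.

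**Figure D5:**
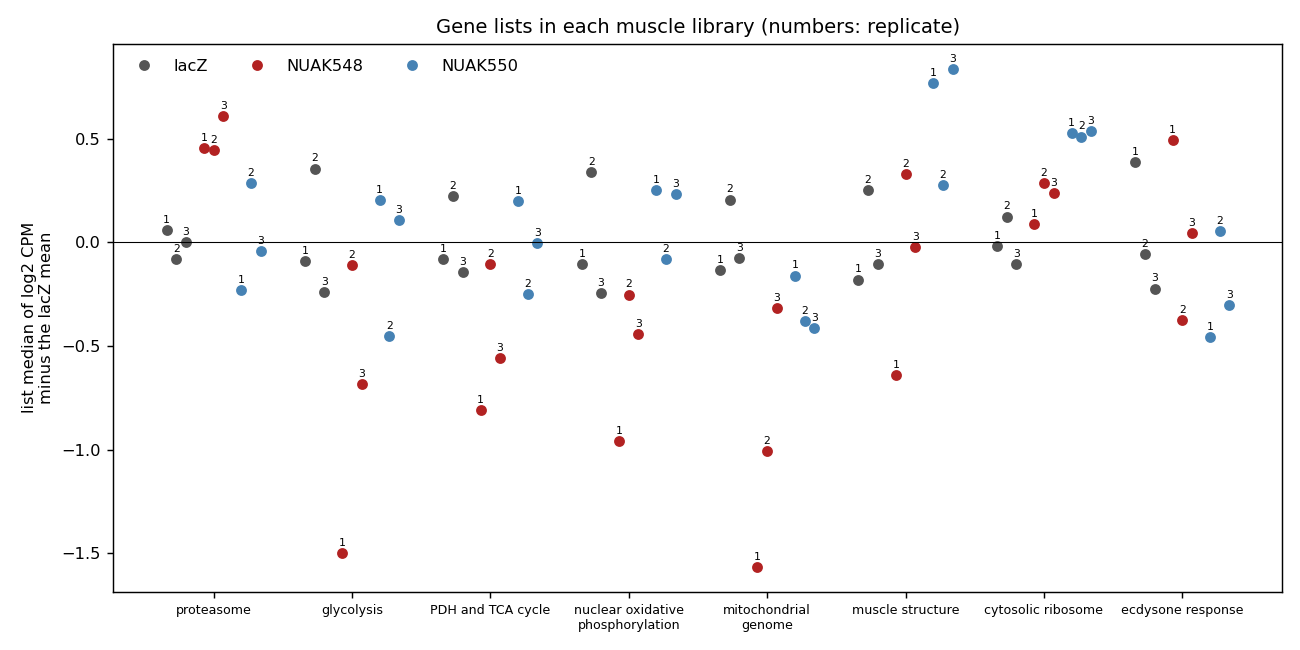
Median over the members of 8 gene lists of log2(CPM + 0.5) minus the lacZ mean (y axis), for each muscle library, numbered by replicate. NUAK548 library 1 is the lowest of all 9 libraries in glycolysis, oxidative phosphorylation, the mitochondrial genome and muscle structure, while the 3 NUAK548 libraries lie together above lacZ for the proteasome.

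Of 31 tested markers of muscle structure 4 rose and 2 fell, where 5.56% of all genes passed in either direction. Their log2 fold changes lay on both sides of 0, with 13 above and 18 below it. The median was −0.10, and 0.105 without NUAK548 library 1. Besides Act87E, the Z-disc protein gene Zasp66 (4118, 4016 and 3650.3 CPM in lacZ and 7379.7, 7429 and 8557 in NUAK548, log2 0.99, SE 0.15, adjusted p = 0.0105), the troponin C gene TpnC73F (2384, 2431 and 2164 CPM in lacZ and 3136, 4106 and 3848 in NUAK548, log2 0.67, SE 0.13, adjusted p = 0.0245) and tn, the muscle E3 ligase thin (1048, 1281 and 1268 CPM in lacZ and 1555, 2333 and 2004 in NUAK548, log2 0.71, SE 0.17, adjusted p = 0.0477), rose. The NUAK548 values of Zasp66, TpnC73F and tn were all above those of lacZ. Strn-Mlck, a titin-like myosin light chain kinase (301, 404 and 367 CPM in lacZ and 106, 153 and 142 in NUAK548, log2 −1.42, SE 0.24, adjusted p = 0.0131), and flr, an actin-disassembly factor (645, 734 and 678 CPM in lacZ and 248, 353 and 320.3 in NUAK548, log2 −1.16, SE 0.15, adjusted p = 0.00546), fell, again without overlap. Zasp66 and flr held in all 9 repeats, Strn-Mlck was lost without lacZ library 2 at adjusted p = 0.057, and TpnC73F held in 3, with adjusted p up to 0.094.

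The main sarcomere genes varied widely among the NUAK548 libraries and did not pass. Mhc, the myosin heavy chain, was measured at 3953, 6037 and 3814 CPM in lacZ, 432, 4493 and 1651 in NUAK548 and 9847, 4679 and 8605 in NUAK550. NUAK548 library 1 was far below the lowest lacZ value and library 2 was within the lacZ range, and the difference missed the threshold (log2 −1.07, SE 0.69, adjusted p = 0.418). The regulatory light chain gene Mlc2 (6586, 12138 and 6379 CPM in lacZ and 1701, 10865 and 6193 in NUAK548, log2 −0.42) and the calcium sensor gene TpnC47D (218, 506 and 247 CPM in lacZ and 15.7, 155 and 74.3 in NUAK548, log2 −1.99) had their lowest value in the same library. The list median against NUAK550 was −0.80, and 1 gene was lower, kon, a transmembrane protein of muscle attachment (46.7, 48 and 52.8 CPM in lacZ, 41.5, 52.3 and 46.7 in NUAK548 and 81.1, 65.4 and 86.9 in NUAK550, log2 −0.73, SE 0.13, adjusted p = 0.0385). In that contrast 0.937% of all genes were lower.

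Genes of calcium handling and membrane excitability gave 4 falls among 24 tested, where 2.96% of all genes fell, and 0 rises. With RyR these were Calx, the sodium-calcium exchanger (40.9, 53.8 and 59.5 CPM in lacZ and 9.57, 24.4 and 11.1 in NUAK548, log2 −1.78, SE 0.34, adjusted p = 0.0232), Ca-alpha1D, the L-type calcium channel (65.8, 71.2 and 73.7 CPM in lacZ and 46.2, 41.8 and 41.7 in NUAK548, log2 −0.70, SE 0.11, adjusted p = 0.0127), and nrv1, a beta subunit of the sodium-potassium pump (623, 566 and 627 CPM in lacZ and 478, 432 and 386 in NUAK548, log2 −0.49, SE 0.12, adjusted p = 0.0475). All 4 were lower in each NUAK548 library than in any lacZ library. The list median of 0.03 was near that of all genes. Ca-alpha1D was lost without lacZ library 2 at adjusted p = 0.056, and Calx and nrv1 held in 5 and 0 of 9 repeats, with adjusted p up to 0.082 and 0.14.

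At the neuromuscular junction, where larval muscle receives glutamate, 2 of 24 genes fell and 1 rose. Over all genes tested, 2.96% fell and 2.6% rose. The glutamate receptor subunit genes GluRIIB (54.5, 47.4 and 54.8 CPM in lacZ and 28.7, 32.6 and 32.7 in NUAK548, log2 −0.74, SE 0.14, adjusted p = 0.0226) and GluRIIE (65.3, 94.5 and 89.96 CPM in lacZ and 30.8, 48 and 42.5 in NUAK548, log2 −1.04, SE 0.20, adjusted p = 0.0217) fell, and the adhesion molecule gene Fas2 rose (54.8, 50.01 and 55 CPM in lacZ and 90.2, 70.7 and 73.7 in NUAK548, log2 0.55, SE 0.11, adjusted p = 0.0272). Of 35 genes of basement membrane and integrin attachment 3 fell and 0 rose. With Ndg these were rhea, the talin that links integrin to actin (459.9, 528 and 565 CPM in lacZ and 250.1, 328 and 249.5 in NUAK548, log2 −0.91, SE 0.20, adjusted p = 0.0361), and the matrix metalloproteinase gene Mmp2 (137, 110.2 and 109 CPM in lacZ and 88.3, 67.3 and 81.5 in NUAK548, log2 −0.59, SE 0.14, adjusted p = 0.0472). The lacZ and NUAK548 values of all these genes were separate. GluRIIB, GluRIIE, Fas2, rhea and Mmp2 held in 4, 5, 3, 3 and 0 of 9 repeats, with adjusted p up to 0.078, 0.082, 0.11, 0.12 and 0.14.

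Cytosolic ribosomal proteins showed a small displacement: 76 of 81 were above 0 with a median of 0.20, and 1 passed, RpS14a (596, 669.5 and 563 CPM in lacZ and 791, 872 and 884 in NUAK548, log2 0.48, SE 0.11, adjusted p = 0.0409), a call that held in 0 of 9 repeats. For the lists in this paragraph, the shares over all genes were 2.6% that rose and 2.96% that fell. The direct comparison with NUAK550 had a median of −0.31 and called 0 of the 81. In the ecdysone list Eip63F-1, an ecdysone-induced calcium-binding protein, rose (80.7, 75 and 107 CPM in lacZ and 227, 214 and 214 in NUAK548, log2 1.32, SE 0.15, adjusted p = 0.00381) in all 9 repeats, the 1 call of 21. The summed level of that list was 4612, 3153 and 3144 CPM in lacZ and 5847, 2855 and 4296 CPM in NUAK548, highest in NUAK548 library 1. The part of larval age in the spread among the NUAK548 libraries was not tested.

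Digestive genes were low in every carcass library, and their values were uneven. Of 74 genes 42 were high enough to test, 36 of them below 0, with a median of −0.91, and 1 fell, the maltase gene Mal-B1 (1.43, 1.97 and 0.973 CPM in lacZ and 0.263, 0.119 and 0.269 in NUAK548, log2 −2.71, SE 0.55, adjusted p = 0.0275). That call held in 2 of 9 repeats, with adjusted p up to 0.1. The share that fell among all genes was 2.96%. The protease genes carried the low values: epsilonTry stood at 23.4, 0.464 and 19.8 CPM in lacZ and 0.789, 0.418 and 1.28 in NUAK548, Jon99Cii at 61.4, 2.61 and 5.78 CPM in lacZ and 1.84, 1.67 and 5.37 in NUAK548 and Jon66Ci at 41.4, 1.04 and 4.38 CPM in lacZ and 0.947, 1.01 and 4.43 in NUAK548. In each, lacZ library 1 was high and lacZ library 2 lay as low as NUAK548, so the groups overlapped, with adjusted p of 0.0854, 0.16 and 0.202. Other members such as Jon65Aiii (45.2, 7.6 and 23.1 CPM in lacZ and 30.4, 3.82 and 51.6 in NUAK548) were as high in NUAK548 as in lacZ. Over single-library omissions the median ran from −1.34 to −0.19.

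Markers of other cell types varied between libraries. Their counts of calls against lacZ stand beside 2.6% of all genes that rose and 2.96% that fell. The salivary gland list summed to 273, 142 and 1189 CPM in lacZ and 34.6, 79.8 and 29.5 CPM in NUAK548, where whole lacZ and NUAK548 larvae had 11620 to 28829 CPM. Its 11 tested genes had a median of −3.62, and none passed. Fat body and haemolymph genes summed to 13135, 8579 and 17178 CPM in lacZ and 8691, 6925 and 7655 CPM in NUAK548, overlapping in 1 library of each group, and 1 of 29 rose. Cuticle genes gave 0 calls among 40 against lacZ and 5 lower against NUAK550, where 0.937% of all genes were lower. Of 14 haemocyte genes 2 rose, the phagocytic receptor genes eater (53.4, 64.4 and 67.5 CPM in lacZ and 102, 105 and 97.6 in NUAK548, log2 0.72, SE 0.12, adjusted p = 0.0124) and NimC1 (14, 16.8 and 17.9 CPM in lacZ and 26.9, 45.7 and 30.2 in NUAK548, log2 1.08, SE 0.25, adjusted p = 0.042), the latter a call held in 2 of 9 repeats. Of 30 genes of discs and proliferating cells 2 rose, RnrS, the small subunit of ribonucleotide reductase (14.1, 17.5 and 15.9 CPM in lacZ and 24, 30.7 and 31 in NUAK548, log2 0.85, SE 0.13, adjusted p = 0.00852), and PCNA, the replication clamp (20.2, 21.8 and 17.6 CPM in lacZ and 26.6, 26.2 and 31.8 in NUAK548, log2 0.51, SE 0.12, adjusted p = 0.0405), the latter in 0 repeats. The part of these cells in the other results was not tested.

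In whole larvae the same pair of genotypes called 19 of 12255 genes (0.155%), 7 higher and 12 lower. Of the 255 genes higher and the 291 lower in muscle, 4 and 1 were called in whole larvae. The 4 were Nuak, CG3397, mthl8 and GILT3, a thiol reductase gene (log2 1.99 in whole larvae and 2.25 in muscle). In whole larvae mthl8 was measured at 0, 0 and 0 CPM in lacZ and 15.8, 18.2 and 15.3 in NUAK548. The gene l(2)efl stood there at 628, 650.4 and 428 CPM in lacZ and 1307, 1520.4 and 1214 in NUAK548 (log2 1.24, SE 0.19, adjusted p = 0.0689), so its groups were closer than in muscle. The RNA lncRNA:roX1 stood at 222, 26.8 and 22.9 CPM in the NUAK548 whole libraries and 228, 196 and 217 in lacZ, so library 1 alone was at the lacZ level, and without it 175 genes were higher and 2096 lower. A model of 12429 genes that tested whether the NUAK548 effect differed between muscle and whole larvae called 64 higher and 49 lower (0.909%), and 54 of the 255 and 42 of the 291 muscle genes were among them. This test shares the lacZ and NUAK548 muscle libraries with the muscle calls, so it is not independent of them.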

How the data were processed

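The authors deposited raw counts per gene for each library, and the 18 libraries were grouped by their titles. Per the submitters' processing notes, the tools were Trimmomatic 0.36, STAR 2.5.2b, featureCounts of Subread 1.5.2 and DESeq2, with the BDGP6 genome. Whether counting used strand is not given in the sources used here. Normalized signal tables were deposited too, in which the counts are divided by 1 factor per library, and these served for 1 alternative. Of 17411 identifiers, 17137 were named by identifier and 220 by exon position, from a later BDGP6 annotation. Coordinates are those of the deposited files.

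Counts were tested with edgeR 4.0.16 in R 4.3.3 (filterByExpr, TMM, quasi-likelihood F test, two-sided, Benjamini-Hochberg over all genes tested). 1 model took the 9 muscle libraries in 3 groups, with 6 residual degrees of freedom. Whole larvae had a like model, and a model of all 18 tested whether the effects differed. The fit was tested on simulated data. Alternatives were DESeq2 1.42.0, other size factors, no filter, only the 2 groups, limma 3.58.1 on log2(normalized value + 1), a replicate block and leaving out each library. In all, 40 gene lists were used, described by counts and medians. Members and lists were chosen with earlier results of these data known.

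Checks were Nuak, lncRNA:roX1, lncRNA:roX2 and w. Further named genes were the 15 largest changes a direction with a mean of at least 5 CPM and separate groups, up to 15 a direction that also differed from NUAK550, up to 5 called members and the 3 members of highest level per list, and all called members of the proteasome, unfolded protein, energy and digestive lists. Other list members named beside them, such as Mhc, Hex-A, Rpn2, Edem2, AttA, Dro, kon, tn, ImpL2 and the trypsin and Jonah genes, were chosen after their values were seen. Libraries of 1 group differed by more than sampling noise, with a chi-square per degree of freedom of at least 40.0.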

Additional observations from a re-analysis of the deposited data

Results flagged for a closer look

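In 25 of the genes named above the difference between NUAK548 and lacZ was not the same in muscle as in whole larvae by a test of that difference in edgeR (adjusted p below 0.05 over 12429 genes). That test shares the muscle libraries by which these genes were called, so it is not independent of those calls. Values are the log2 fold change in muscle minus that in whole larvae. The difference was positive for CG40298 (5.14), CG14022 (4.85), Rpt6R (4.0), l(2)efl (3.05), Bhmt (3.03), CG14451 (2.98), hoe2 (2.65), Thor (2.23), Atg16 (1.55), Atg9 (1.44), cathD (1.35), Eip63F-1 (1.17), Rel (1.17), Cat (1.03), Prosbeta7 (0.96), TpnC73F (0.86), Zasp66 (0.86) and Prosalpha2 (0.83). Each of these genes rose in muscle, with a smaller or negative log2 fold change in whole larvae. The difference was negative for CG8641 (−4.20), Dscam4 (−4.01), SmydA-2 (−3.95), RyR (−3.61), rpr (−1.99), Strn-Mlck (−1.46) and flr (−1.12). The chaperone gene l(2)efl had a log2 fold change of 4.25 in muscle and 1.24 in whole larvae, and Bhmt of 2.68 in muscle and −0.31 in whole larvae. For the autophagy gene Atg9 it was 1.13 in muscle and −0.27 in whole larvae, and for the calcium channel gene RyR −3.38 in muscle and 0.28 in whole larvae. Rpt6R, the testis paralogue of a proteasome ATPase, had a log2 fold change of 2.61 in muscle and −1.34 in whole larvae, where its mean was 19.5 CPM in lacZ and 7.67 CPM in NUAK548. Summed testis and germ-line markers were 798, 627 and 679 CPM in the whole lacZ libraries and 858, 18 and 19.9 CPM in those of NUAK548, and their part in the Rpt6R difference was not tested. The whole libraries of NUAK548 were uneven: without the first of them the number of genes whose effect differed was 1073 higher and 218 lower, in place of 64 and 49.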

How the results depend on the processing

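Of 104 named genes called against lacZ in muscle, 0 changed direction in an alternative that gave them a value; limma on the authors' normalized values gave one for 99 and the fit of only the 2 groups for 103. In NUAK548 against lacZ in muscle, 255 higher and 291 lower genes became 491 and 599 by DESeq2, 159 and 182 with only the 2 groups compared, and 99 and 123 with the replicate number as a block. In NUAK548 against NUAK550, 50 and 92 became 355 and 498 by DESeq2, 11 and 19 with only the 2 groups compared, and 6 and 20 with the replicate block. In whole larvae, 7 and 12 became 231 and 219 by DESeq2, and 7 lower with the replicate block. For the difference between muscle and whole larvae, 64 and 49 became 205 and 216 by DESeq2. The cause of these changes was not tested. Other size factors and no filter on low counts gave counts within 1.5 times of the main ones in these 4 comparisons, as did limma in the 2 muscle comparisons it was run on. Leaving out 1 library at a time gave 80 to 247 higher and 94 to 282 lower genes against lacZ, and 8 to 51 and 15 to 134 against NUAK550. It gave 2 to 175 and 2 to 2096 in whole larvae, and 24 to 1073 and 22 to 218 for the difference between preparations. Of 936 such repeats over the 104 called genes, 571 kept the call. The labels do not say whether replicate numbers pair the samples. Deviations of same-numbered lacZ and NUAK548 libraries from their group means correlated at 0.31, 0.10 and −0.17. With so few libraries a group these values cannot show or exclude pairing. The median log2 fold change of all genes stayed between −0.01 and 0.02 in NUAK548 against lacZ in muscle. Genes with few reads have wide counting error, as Alp7 with 2 reads in NUAK548.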

Other observations

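For the lists below, the shares over all genes were 2.6% that rose and 2.96% that fell. Genes of insulin and TOR signalling showed 1 rise, Thor, and 0 falls among 23 tested, with a median of −0.03. Within that list ImpL2, a secreted protein that binds insulin-like peptides, was measured at 374, 209 and 352 CPM in lacZ and 943, 593 and 539 in NUAK548. Its 3 NUAK548 values were above the 3 lacZ values, highest in library 1, and the difference missed the threshold (log2 1.15, adjusted p = 0.0573). Of 22 genes of neurons and presynaptic terminals 18 were above 0, with a median of 0.46, and 1 rose, unc-13, a vesicle priming factor, of which 25.2% overlaps another gene (58.7, 69.7 and 53.2 CPM in lacZ and 83.3, 83.1 and 90.7 in NUAK548, log2 0.50, SE 0.11, adjusted p = 0.0365). The median of that list was 0.094 without NUAK548 library 1, and the call of unc-13 held in 2 of 9 repeats with a library left out, with adjusted p up to 0.12. Among 10 tracheal genes 1 fell, the FGF receptor gene btl (13.6, 15.4 and 14.3 CPM in lacZ and 9.1, 8.89 and 10.8 in NUAK548, log2 −0.59, SE 0.13, adjusted p = 0.0411). It held in 2 of 9 repeats, with adjusted p up to 0.14, and was lost with no filter on low counts, with only the 2 groups compared and with the replicate block. Among 17 genes of Malpighian tubule, pericardial cells and oenocytes 1 rose, CG10226 (2.3, 2.79 and 2.62 CPM in lacZ and 8.1, 19 and 9.67 in NUAK548, log2 2.25, SE 0.34, adjusted p = 0.00933), a call that held with any 1 library left out. None of 11 mitochondrial chaperone and protease genes and none of 11 glial genes passed by edgeR or by DESeq2.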
